A study of Mus musculus with 11 samples.

Results

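Glucose uptake and glycolysis genes were followed through an early step of T cell development in the thymus. The set holds 10 genes of the 35896 with deposited transcripts, namely the glucose transporters Slc2a1 and Slc2a3, the hexokinases Hk1 and Hk2, the phosphofructokinases Pfkl and Pfkp, the phosphoglycerate mutases Pgam1 and Pgam2, the pyruvate kinase Pkm and the lactate dehydrogenase Ldha. All 10 were among the 13749 genes that passed the filter on low counts. The genes were chosen by their place in the pathway, and Pgam2 was selected on its values in these libraries, since it rose from DN2 to DN3 in WT and not in Arpp21-/- thymocytes. Its values below are therefore a description without a test, and the stage differences of the other 9 genes are read as a description too.

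Thymocytes pass through CD4- CD8- double negative (DN) stages, of which DN2 comes before DN3. Rearrangement of the gene for the T cell receptor β chain takes place in DN3. RNA was sequenced from thymocytes of C57BL/6J mice sorted at DN2 and at DN3, giving 11 libraries. WT thymocytes gave 3 libraries at each stage, and Arpp21-/- thymocytes gave 2 at DN2 and 3 at DN3. Arpp21 is intact in WT, and Arpp21-/- (labelled Arpp21 KO) thymocytes came from a germline mouse line in which exon 5 of Arpp21, which encodes an RNA-binding protein, had been excised. In that line the study found the long Arpp21 protein lost and more of its short form in thymocyte extracts. The labels name no further allele and no treatment. Per the methods, mice of both sexes and of different ages were matched between genotypes, and cells were sorted to high purity. The labels give neither ages nor whether each library came from a separate animal, so the spread between libraries may be technical. Comparing stages asks how these genes move as thymocytes reach DN3, and comparing genotypes asks whether they move without the long Arpp21 protein.

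Glycolysis breaks glucose down to pyruvate in the cytosol, and lactate dehydrogenase can turn the pyruvate into lactate. Glucose enters through carriers of the Slc2a family, hexokinases trap it as glucose 6-phosphate, phosphofructokinases commit it to the pathway, and phosphoglycerate mutases, enolases and pyruvate kinase complete the lower part. Most steps have several forms encoded by separate genes, which differ in where they are made, and developing thymocytes are known to take up more glucose when the pre-T cell receptor and Notch signal.

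Reads of the 2 phosphoglycerate mutase genes have to be told apart before the level of Pgam2, best known as the form of skeletal muscle, can be read. Pgam2 lies at chr11:5801640-5803733 on the minus strand of GRCm38 and has a single annotated transcript of 840 nt, Pgam2-201. Pgam1, the broadly expressed form, lies at chr19:41911923-41918660 on the plus strand. Their coding sequences were identical at 567 of 759 positions (74.7%), compared without gaps up to the stop codon of Pgam2-201. The following 30-base stretches are those that differed most (coding bases 121 to 150, with 12 identical) and least (coding bases 604 to 633, with 28 identical). They are shown because they bound how alike the genes are, with differing bases in capitals. The stretches of Pgam2 lie in exon 1 at chr11:5803539-5803568 and in exon 3 at chr11:5801802-5801831. Those of Pgam1 lie across exons 1 and 2 between chr19:41912168 and 41915615 and in exon 4 at chr19:41917614-41917643.
Pgam1, most different: ggCgGGCAGgcGTtGCGagatgcTGGCTAT
Pgam2, most different: ggGgCCACCgcTAtCAAagatgcCAAGATA
Pgam1, most alike: gaAGaggccatcatggagctgaacctgccc
Pgam2, most alike: gaCCaggccatcatggagctgaacctgccc
The longest run the coding sequences shared was 28 bases, shorter than the 31-base words by which kallisto assigns reads. None of the 810 words of Pgam2-201 was found in a transcript of another gene. By contrast, 42.1% of the words of Pgam1-201 were also found in other genes, all of these 735 words in the processed pseudogene Pgam1-ps2, so that counts of Pgam1 are uncertain in a way those of Pgam2 are not.

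Before the values, 2 of the 11 libraries have to be set apart. Library totals lay between 14531762 and 63109504 estimated counts, and those of DN2 Arpp21-/- replicate 2 and DN3 Arpp21-/- replicate 3 were the highest and the lowest. Values within a gene are given in CPM, counts scaled to the library total after TMM normalization. Against the WT libraries of the stage, the median log2 CPM of genes with transcripts of at least 4292 nt was lower than that of genes with at most 1408 nt by 3.32 in DN2 Arpp21-/- replicate 2 and by 1.72 in DN3 Arpp21-/- replicate 3. The same difference lay between -0.35 and 0.34 in the other 9 libraries. The 6 DN3 markers summed to 1562 to 2319 CPM in DN2 WT and to 4770 to 5601 CPM in 5 of the DN3 libraries. Their sum was 2708 CPM in DN3 Arpp21-/- replicate 3, where Notch1 (249 CPM) and Il2ra (527 CPM) lay below every DN2 WT library. Of the list, Ptcra, Rag1, Cd3e and Notch3 each separated the stages in all 11 libraries. Ptcra was at 365 CPM or more at DN3 and 11.7 CPM or less at DN2. Kit fell to 66.6 CPM in DN2 Arpp21-/- replicate 2, against 553 CPM in replicate 1, and stood at 446 to 512 CPM in DN2 WT. Markers of other cells and of division also moved with the stage. Summed over 8 genes of proliferating cells, the level was 1592 to 2041 CPM in DN2 WT and 1592 and 2247 CPM in DN2 Arpp21-/-, and 1064 to 1159 CPM in DN3 WT and 884 to 1392 CPM in DN3 Arpp21-/-. The sums hide opposite moves in both libraries set apart. There Mki67, Top2a and Plk1 were below, and Cdk1, Ccnb1, Ccna2 and Birc5 above, the other libraries of the group. In DN2 Arpp21-/- replicate 2, Mki67 was at 3.13 CPM and Cdk1 at 488 CPM, against 99.97 and 130 CPM in replicate 1. The 7 myeloid markers summed to 114 to 357 CPM in DN2 and 29.9 to 47.6 CPM in DN3, with Tyrobp at 43.3 to 203 CPM in DN2 and at most 0.807 CPM in DN3. The 6 red cell markers summed to 300.1 to 1476 CPM in DN2 and 30.3 to 115 CPM in DN3, and Hbb-bt made up most of the DN2 sums. Hbb-bs overlapped between the WT stages (16.7 to 39.4 and 17.5 to 39.1 CPM), as did Hba-a1, and Alas2 was higher in DN3 WT (1.15 to 2.42 CPM) than in DN2 WT (at most 0.0909 CPM). Of the 5 B cell markers, Pax5 was at 0 in all 11 libraries and Cd79b at 38.4 to 48.3 CPM in DN2 WT and 61.1 to 65.9 CPM in DN3 WT, and the other 3 did not pass 1.23 CPM. The part of these differences in the results below was not tested. Arpp21 itself was at 125 to 183 CPM in DN2 WT, 28.5 to 86.9 CPM in DN2 Arpp21-/-, 312 to 386 CPM in DN3 WT and 142 to 335 CPM in DN3 Arpp21-/-. Counts summed over the gene do not test the loss of 1 exon.

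**Figure D1:**
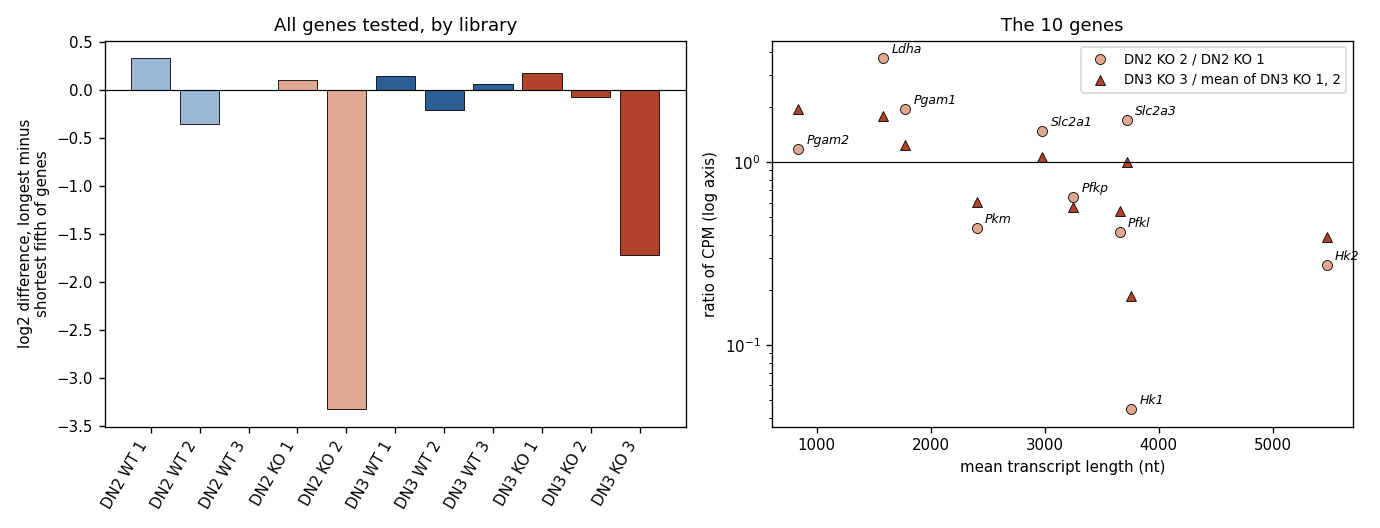
Left, difference of the median log2 CPM between the genes tested with the longest and those with the shortest transcripts, relative to the WT libraries of the stage, for each library. Right, ratio of CPM (log axis) in the 2 libraries that stood apart to the other libraries of their group, for each of the 10 genes against its mean transcript length in nt. Hk1 was lowest in both, and Ldha or Pgam2 highest.

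The 10 genes followed the split between these libraries unevenly. In DN2 Arpp21-/- replicate 2, Hk1 was 22.5-fold lower, Hk2 3.65-fold lower and Pfkl 2.42-fold lower than in replicate 1, and Ldha was 3.71-fold higher and Pgam1 1.94-fold higher. DN3 Arpp21-/- replicate 3 moved the same genes in the same directions against the mean of replicates 1 and 2, with Hk1 5.39-fold lower and Ldha 1.78-fold higher. Mean transcript length was 3760 nt for Hk1, 1583 nt for Ldha and 840 nt for Pgam2. Slc2a3 did not follow its length of 3719 nt, being 1.699-fold higher in the DN2 library and level in the DN3 library, at a ratio of 0.998.

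Pgam2 rose at DN3 in WT and stayed low in Arpp21-/- thymocytes, which is the pattern it was chosen for. DN2 WT libraries held 3.88, 1.96 and 2.26 CPM, and DN2 Arpp21-/- libraries 4.96 and 5.88 CPM. In DN3 WT the values were 25.7, 30.4 and 34.4 CPM. The 3 DN3 Arpp21-/- libraries held 6.87, 4.63 and 11.3 CPM, the highest of them in replicate 3, which stood apart. No library of DN3 WT overlapped with another group, its lowest value being 2.27-fold above the highest of DN3 Arpp21-/-. These values rest on 43 to 777 counts per library. The fitted log2 fold change from DN2 to DN3 was 3.48 ± 0.44 (SE) in WT, an 11.2-fold rise, and 0.48 ± 0.45 in Arpp21-/-. Between the genotypes it was -1.99 ± 0.41 in DN3, 3.97-fold lower in Arpp21-/-, and 1.00 ± 0.44 in DN2, and the difference of the stage changes was -2.995 ± 0.60. Without both libraries that stood apart, the stage change in Arpp21-/- was 0.21 ± 0.45 and the difference in DN3 was -2.39 ± 0.36. In sorted bulk samples, fewer cells that make a transcript and less of it per cell cannot be told apart.

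Among all 13749 genes, 328 had a higher log2 fold change than Pgam2 from DN2 to DN3 in WT, and 4556 had a higher one in Arpp21-/-. Between the genotypes in DN3, 118 genes had a lower log2 fold change. The 7 markers of skeletal muscle summed to 8.02 to 17.4 CPM in DN2 WT, 9.68 to 12.0 CPM in DN3 WT, 14.2 and 22.4 CPM in DN2 Arpp21-/- and 12.54 to 14.4 CPM in DN3 Arpp21-/-. Myh4 was at 0 in all 11 libraries and Acta1 did not pass 0.0545 CPM. Ckm, the muscle creatine kinase, was at 0.523 to 3.82 CPM in DN2 WT and at 0.183 to 0.597 CPM in DN3 WT. Eno3, the muscle enolase, went the same way as Pgam2 in WT, from 1.87, 3.32 and 1.73 CPM in DN2 to 4.75, 5.71 and 5.39 CPM in DN3. Its log2 fold change was 1.196 ± 0.42 (adjusted p = 0.202 in edgeR's quasi-likelihood test), and DESeq2 called it. It was at 6.74, 7.24 and 4.28 CPM in DN3 Arpp21-/-, where Pgam2 was low. The convergent neighbour Dbnl, separated from Pgam2 by 677 bases, was at 188 to 217 CPM in DN3 WT and at 199.5 to 208 CPM in DN2 WT. In Arpp21-/- Dbnl was at 201.5 and 61.4 CPM in DN2 and at 198.5, 169 and 95.7 CPM in DN3, with the low values in the libraries that stood apart. Its difference between the genotypes in DN3 was -0.40 ± 0.41 (adjusted p = 1 in edgeR's quasi-likelihood test).

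**Figure D2:**
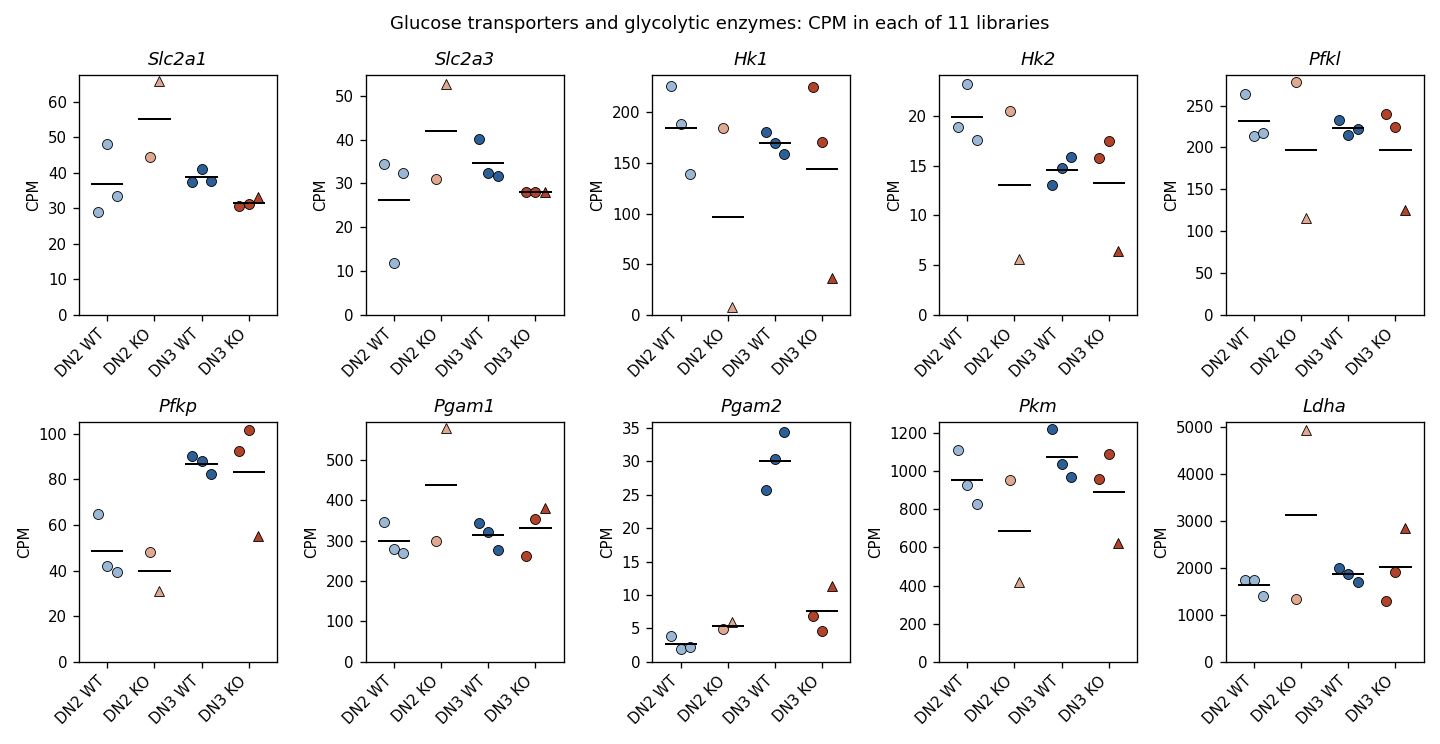
CPM of each gene in each of the 11 libraries. Points are libraries, bars are group means and triangles mark the 2 libraries that stood apart. Pgam2 sits between 25.7 and 34.4 CPM in DN3 WT and at 11.3 CPM or less elsewhere.

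The share of Pgam2 in the phosphoglycerate mutase pool was read per transcript length, from TPM, in which the counts of a transcript are set against its effective length. Pgam2 made up 1.62% to 2.51% of the summed TPM of Pgam1 and Pgam2 in DN2 WT and 2.34% and 3.75% in DN2 Arpp21-/-. At DN3 it made up 14.98%, 18.2% and 22.6% in WT and 5.86%, 3.01% and 6.61% in Arpp21-/-. Pgam1 thus remained the larger part of the pool in every library. It stood at 346, 279 and 270 CPM in DN2 WT, 298 and 579 CPM in DN2 Arpp21-/-, 343, 321 and 276 CPM in DN3 WT, while DN3 Arpp21-/- libraries held 261, 352 and 380 CPM. Apart from the 579 CPM of the DN2 library that stood apart, the groups overlapped. Its log2 fold change was 0.07 ± 0.29 from DN2 to DN3 in WT and 0.08 ± 0.29 between the genotypes in DN3 (adjusted p = 1 in edgeR's quasi-likelihood test).

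By Pearson's r of log2 CPM over the 11 libraries, the 5 genes most like Pgam2 among 13748 were D930016D06Rik, a long noncoding RNA gene (r = 0.943), Gm19040, a processed pseudogene (r = 0.924), Pqlc3 (r = 0.918), Zcchc12 (r = 0.914) and AA467197 (r = 0.910). The points share 4 groups and the depth of their libraries, so r mainly reads the group means. Pqlc3 was at 131 to 134 CPM in DN3 WT, at most 91.1 CPM in DN3 Arpp21-/-, and 33.9 to 43.8 CPM in DN2 WT. Zcchc12 was at 14.5 to 21.1 CPM in DN3 WT and 8.17 to 14.4 CPM in DN3 Arpp21-/-, and Gm19040 did not pass 0.938 CPM in any library. Of the members, Pfkp was the most like Pgam2 (r = 0.578) and Hk2 the least (r = -0.293).

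Across the remaining 9 genes, none passed an adjusted p of 0.05 in any of the 5 comparisons in edgeR's quasi-likelihood test. Pfkp was called from DN2 to DN3 by limma voom in WT and by DESeq2 in Arpp21-/-. Because stage differences of the members are a description, calls of members between the stages, or their absence, are not read as a test. Of all genes tested, 4.12% passed from DN2 to DN3 in WT and 4.34% in Arpp21-/-. Between the genotypes 0.00727% passed in DN3, which is 1 gene, H2-Q6 of a family with near-identical copies, and 0% in DN2. The difference of the stage changes was passed by 0% as well. At an unadjusted p under 0.05, 2019 genes were found between the genotypes in DN2, 214 in DN3 and 372 in the difference of stage changes, and DESeq2 called 38, 16 and 10 genes. None of the 9 members was below an unadjusted 0.05 in these 3 comparisons. Their median log2 fold change was 0.07 from DN2 to DN3 in WT, with 6 of 9 positive, and 0.00 in Arpp21-/-, with 4 of 9 positive. Between the genotypes it was -0.18 in DN3 and -0.23 in DN2. Over all genes tested the medians were 0.01 from DN2 to DN3 in WT, 0.03 in Arpp21-/-, -0.01 between the genotypes in DN3 and -0.06 in DN2.

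**Figure D3:**
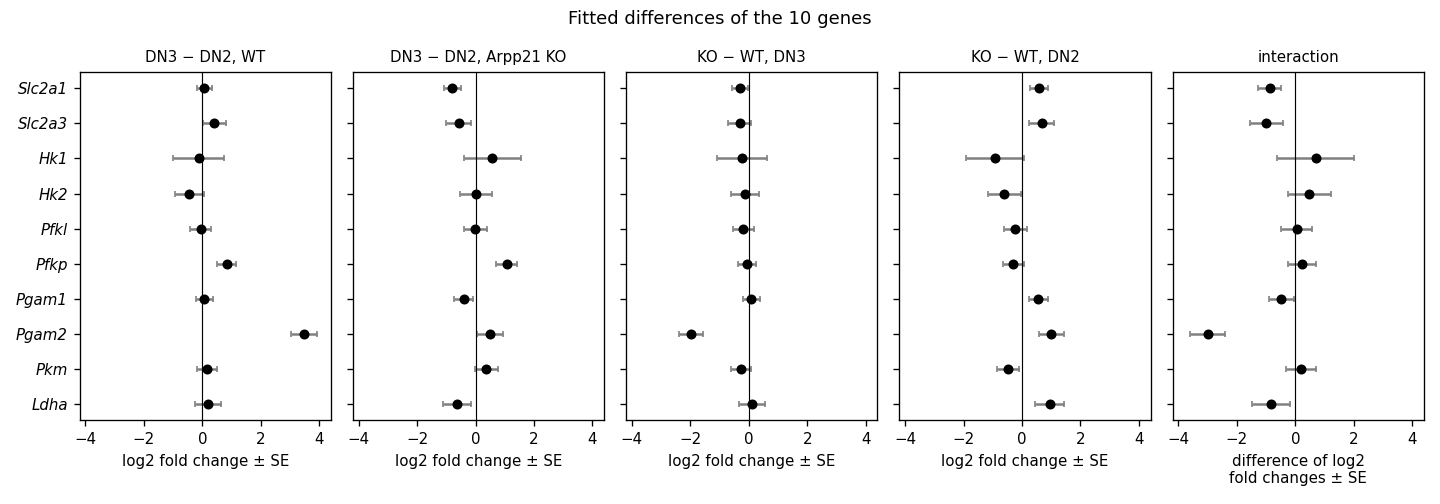
Fitted log2 fold change ± SE of each of the 10 genes in the 4 comparisons of stage and genotype, and the difference of the stage changes between the genotypes (interaction). Pgam2 lies at 3.48 in WT and 0.48 in Arpp21-/-, and the other 9 genes lie between -0.45 and 0.83 in WT.

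Both glucose transporters were lower in each DN3 Arpp21-/- library than in any DN3 WT library. Slc2a1 (chr4:119108711-119137983) encodes Glut1, the carrier of basal glucose uptake, and stood at 37.4, 41.2 and 37.8 CPM in DN3 WT and at 30.6, 31.1 and 33.1 CPM in DN3 Arpp21-/-. Slc2a3 (chr6:122727809-122801640), which encodes the high-affinity carrier Glut3, stood at 40.2, 32.5 and 31.7 CPM in DN3 WT and at 28.0, 28.2 and 28.0 CPM in DN3 Arpp21-/-. The groups did not overlap for either gene, as for 10.5% of all genes tested, and overlapped for the other 7 members. In the fit the differences were -0.30 ± 0.27 for Slc2a1 and -0.31 ± 0.39 for Slc2a3, both with an adjusted p of 1 in edgeR's quasi-likelihood test, so that neither was called. Without both libraries that stood apart they were -0.33 ± 0.22 and -0.31 ± 0.38.

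At DN2 the transporters were less even between libraries. Slc2a1 was at 28.98, 48.1 and 33.5 CPM in WT and at 44.4 and 65.8 CPM in Arpp21-/-. Slc2a3 was at 34.4, 11.9 and 32.4 CPM in WT and at 31.03 and 52.7 CPM in Arpp21-/-, with WT replicate 2 far below the other WT libraries. Between the genotypes in DN2 the groups overlapped for all 9 genes, against 15.8% of genes tested whose groups did not. From DN2 to DN3 in Arpp21-/- the libraries of Slc2a1, Slc2a3 and Pfkp did not overlap, as for 25.0% of all genes. The log2 fold change was -0.80 ± 0.30 for Slc2a1 and -0.58 ± 0.43 for Slc2a3, and it was -0.53 ± 0.29 and -0.15 ± 0.51 without both libraries that stood apart. Slc2a3 made up 47.9% to 56.0% of the summed TPM of both carriers in DN3 WT and 50.9% to 53.1% in DN3 Arpp21-/-. In DN3 WT the 601 nt transcript Slc2a3-202 took 43.6% to 47.9% of the TPM of Slc2a3. Of the counts of the gene it took 8.70% to 9.68%. Slc2a1-204, annotated for nonsense-mediated decay, took 32.1% to 47.1% of the TPM of Slc2a1 there. The share of each carrier therefore depends on how transcript length is handled.

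Hexokinase transcripts were mainly those of Hk1, the form of most tissues, which can bind mitochondria. Hk1 (chr10:62268855-62379908) was at 226, 188 and 139 CPM in DN2 WT, 185 and 8.21 CPM in DN2 Arpp21-/-, 180, 169 and 159 CPM in DN3 WT, while DN3 Arpp21-/- libraries held 225, 170 and 36.6 CPM. Its low values were those of the libraries that stood apart, and the others overlapped. Hk2 (chr6:82725025-82774454), an inducible form, was lower in each DN3 WT library (13.0, 14.8 and 15.9 CPM) than in any DN2 WT library (18.8, 23.2 and 17.6 CPM). DN3 Arpp21-/- libraries held 15.8, 17.5 and 6.46 CPM of Hk2 and DN2 Arpp21-/- libraries 20.5 and 5.61 CPM. The fitted change in WT was -0.45 ± 0.49. Pfkp and Hk2 were the members without overlap between the WT stages, where 34.8% of all genes tested had none. Hk2 made up 4.96% to 6.11% of the summed TPM of Hk1 and Hk2 in DN3 WT.

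Pfkp (chr13:6579768-6648777), the platelet-type phosphofructokinase, was higher at DN3 in both genotypes. In WT it went from 64.9, 42.1 and 39.2 CPM at DN2 to 90.1, 87.9 and 82.1 CPM at DN3. In Arpp21-/- it went from 48.1 and 31.2 CPM to 92.4, 102 and 55.1 CPM, and no DN3 library fell within the DN2 values of its genotype. The log2 fold change was 0.83 ± 0.32 in WT and 1.07 ± 0.36 in Arpp21-/-, and 0.85 ± 0.19 and 1.00 ± 0.29 without both libraries that stood apart. The liver-type gene Pfkl (chr10:77986947-78010083) was at 264, 213 and 217 CPM in DN2 WT and 232, 215 and 222 CPM in DN3 WT, with overlapping stages. It was at 279 and 115 CPM in DN2 Arpp21-/- and at 240, 224 and 125 CPM in DN3 Arpp21-/-. The share of Pfkp in the summed TPM of both genes was accordingly 17.4% to 25.2% in DN2 WT and 29.8% to 33.3% in DN3 WT, and 18.5% and 20.6% in DN2 Arpp21-/- and 31.7% to 37.3% in DN3 Arpp21-/-. In both Arpp21-/- groups the library that stood apart had the highest share.

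**Figure D4:**
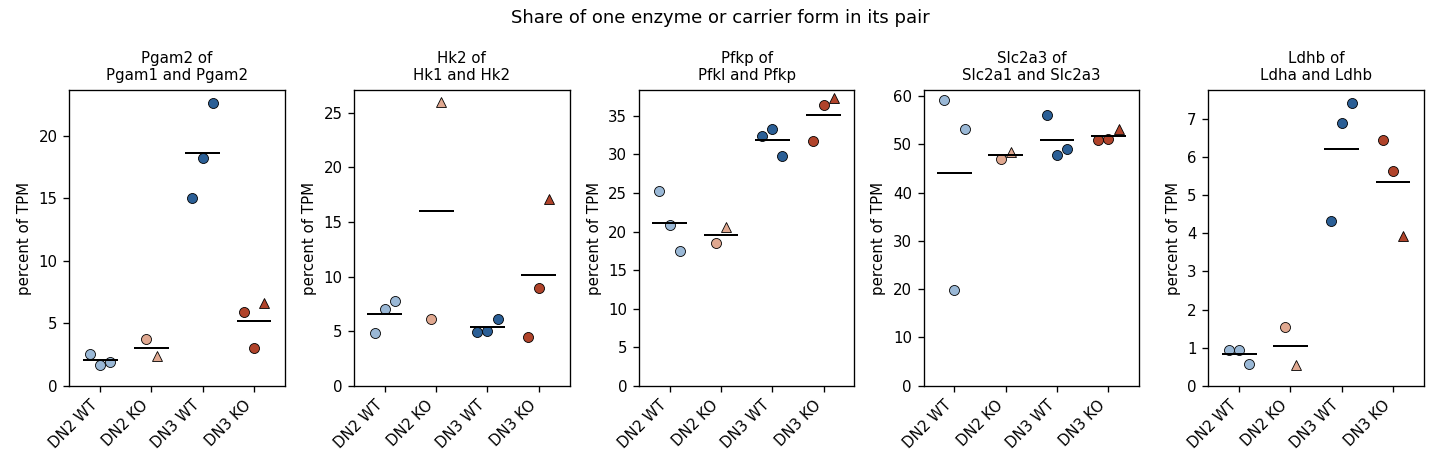
Share of the first gene in the summed TPM of a pair of related genes, in percent, for each library. Points are libraries, bars are group means and triangles mark the 2 libraries that stood apart. Pgam2 makes up 14.98% to 22.6% of its pair in DN3 WT and at most 6.61% in DN3 Arpp21-/-.

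Pkm and Ldha, the last enzymes of the route to lactate, were the most abundant members by TPM, with 1 library as exception. In DN2 Arpp21-/- replicate 2, which stood apart, Pgam1 (176 TPM) exceeded Pkm (92.7 TPM). Pkm (chr9:59656368-59679375) was at 1113, 927 and 829 CPM in DN2 WT and 1221, 1039 and 972 CPM in DN3 WT. In Arpp21-/- it was at 956 and 419 CPM at DN2 and at 962, 1090 and 623 CPM at DN3, so that both genotypes overlapped at each stage. Ldha (chr7:46841475-46855627) was at 1744, 1739 and 1406 CPM in DN2 WT, 1332 and 4938 CPM in DN2 Arpp21-/-, 2001, 1878 and 1706 CPM in DN3 WT, while DN3 Arpp21-/- libraries held 1295, 1910 and 2860 CPM. The fitted change from DN2 to DN3 in WT was 0.17 ± 0.34 for Pkm and 0.19 ± 0.44 for Ldha. Between the genotypes in DN3 the log2 fold changes were -0.27 ± 0.34 and 0.12 ± 0.44 (adjusted p = 1 for each in edgeR's quasi-likelihood test). Processed copies share 48.5% of the 31-base words of the leading Pkm transcript and 39.2% of those of Ldha, but the other genes that hold them did not pass 0.318 CPM for Pkm and 1.96 CPM for Ldha.

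The transcripts of Pkm differ by a pair of mutually exclusive exons of 167 bases, identical at 103 positions. Pkm-201 holds the downstream exon, chr9:59675568-59675734, used in the M2 form of proliferating cells. Pkm-202 holds the upstream exon, chr9:59675029-59675195, used in the M1 form of muscle. Exon bases 44 to 73, where the exons differ most, show what separates the reads, with differing bases in capitals. They lie at chr9:59675611-59675640 in Pkm-201 and at chr9:59675072-59675101 in Pkm-202.
Pkm-201, M2-type exon: tCgaGgaActCCGCcgCCTGGcGCCCATTA
Pkm-202, M1-type exon: tTgaAgaGctTGTGcgAGCCTcCAGTCACT
Pkm-201 took 93.5% ± 0.594 (SD, n = 3) of the estimated counts of Pkm in DN2 WT, 94.1% ± 0.584 (n = 3) in DN3 WT and 95.0% ± 0.155 (n = 3) in DN3 Arpp21-/-. Pkm-202 took 5.79% ± 0.294 in DN2 WT, 5.42% ± 0.445 in DN3 WT and 4.67% ± 0.187 in DN3 Arpp21-/-. These shares are kallisto's division of reads, most of which fall in exons that both transcripts hold.

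Levels were compared between genes only per length, by TPM. In DN3 WT the order ran from Ldha (1826 to 2057 TPM) through Pkm (657 to 807 TPM), Pgam1 (259 to 310 TPM), Pfkl (93.4 to 107 TPM), Hk1 (69.5 to 75.2 TPM), Pgam2 (54.6 to 75.4 TPM), Pfkp (45.5 to 50.4 TPM), Slc2a3 (20.4 to 26.4 TPM) and Slc2a1 (20.7 to 22.2 TPM) to Hk2 (3.92 to 4.52 TPM). Hk1 and Pgam2 overlapped, as did the transporters, and the other neighbours did not. The place of Slc2a3 rests in part on its short transcript Slc2a3-202, and its level fell with counts over mean effective length. In DN2 WT Pgam2 was at 3.56 to 7.98 TPM and overlapped with Hk2, at 4.47 to 5.45 TPM. In DN3 Arpp21-/- replicates 1 and 2, Pgam2 was at 15.04 and 9.78 TPM, below Slc2a1 at 17.25 and 17.18 TPM. Only in replicate 3, which stood apart, was Pgam2 (14.65 TPM) above Slc2a1 (9.68 TPM).

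**Figure D5:**
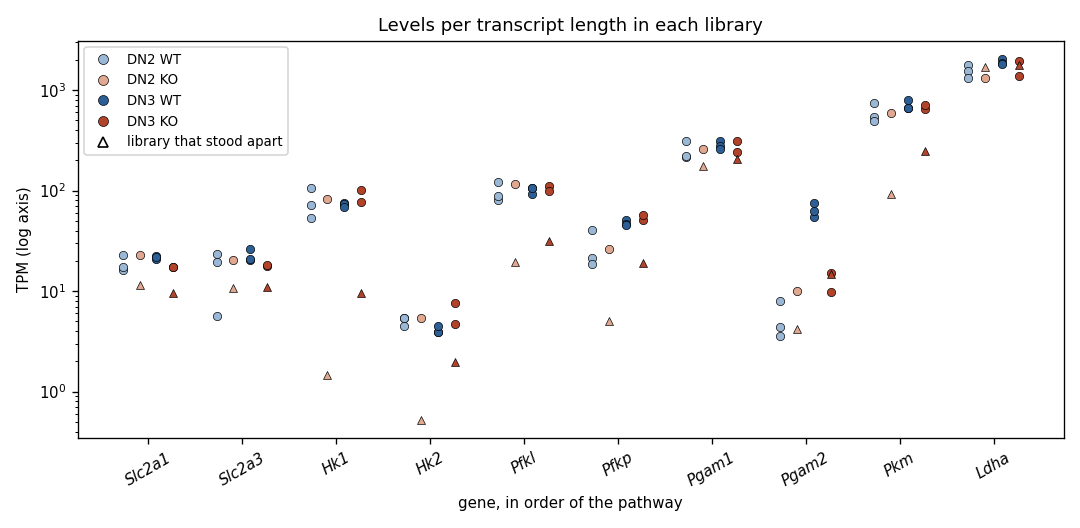
TPM (log axis) of the 10 genes in pathway order in each library, coloured by group, with triangles for the 2 libraries that stood apart. In DN3 WT Ldha lies between 1826 and 2057 TPM and Hk2 between 3.92 and 4.52 TPM.

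The rest of the pathway was read in 68 further genes, of which 60 were tested. They comprised other transporters and glycolytic enzymes, enzymes of fructose 2,6-bisphosphate, carriers of lactate and pyruvate with the pyruvate dehydrogenase gate, the pentose phosphate pathway, transcriptional regulators and targets of hypoxia-inducible factor (HIF). From DN2 to DN3 in WT 3 rose and 2 fell, where 1.87% of all genes rose and 2.25% fell. In Arpp21-/- 3 rose and 2 fell as well, where 1.40% of all genes rose and 2.95% fell, and both comparisons called Ldhb, Ndrg1 and Ddit4 higher and Slc16a3 and Mycn lower. The median log2 fold change of the 60 genes was 0.07 in WT and -0.03 in Arpp21-/-, against 0.01 and 0.03 over all genes. In edgeR's quasi-likelihood test none of the 60 passed between the genotypes at either stage or in the difference of stage changes. At an unadjusted p under 0.05 there were 8 of them in DN2, 1 in DN3 and 1 in the difference. Over all 13749 genes tested, these counts were 2019, 214 and 372. DESeq2 called none of the 60 in these comparisons either, and limma voom called 1, Vhl, in DN3.

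Ldhb, the lactate dehydrogenase subunit of heart muscle, rose the most of these in WT. It was at 13.4, 12.3 and 6.02 CPM in DN2 WT and 68.7, 108 and 105 CPM in DN3 WT, and at 15.7 and 20.3 CPM in DN2 Arpp21-/- and 65.9, 88.5 and 88.1 CPM in DN3 Arpp21-/-. All DN3 libraries lay above all DN2 libraries. Its log2 fold change was 3.15 ± 0.37 (adjusted p = 0.00142 in edgeR's quasi-likelihood test) in WT and 2.17 ± 0.41 (adjusted p = 0.0151) in Arpp21-/-. Its difference between the genotypes in DN3 was -0.22 ± 0.34 (adjusted p = 1), and that of the stage changes was -0.99 ± 0.50 (adjusted p = 0.965). Ldhb made up 4.31% to 7.41% of the summed TPM of Ldha and Ldhb in DN3 WT, against 0.579% to 0.951% in DN2 WT. The pseudogene Gm5514 holds 41.4% of the 31-base words of Ldhb but did not pass 0.486 CPM.

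Slc16a3, a carrier that exports lactate, fell from 6.41, 10.2 and 6.40 CPM in DN2 WT to 1.74, 0.810 and 1.37 CPM in DN3 WT, a log2 fold change of -2.55 ± 0.53 (adjusted p = 0.0237 in edgeR's quasi-likelihood test). In Arpp21-/- it fell from 4.84 and 8.58 CPM to 1.12, 0.545 and 1.53 CPM (-2.66 ± 0.57, adjusted p = 0.0269). Mycn, a transcription factor of the Myc family, fell from 118, 118 and 132 CPM to 19.7, 19.96 and 17.4 CPM in WT, with a log2 fold change of -2.69 ± 0.34 (adjusted p = 0.00199), and by 2.33 ± 0.35 (adjusted p = 0.00499) on the log2 scale in Arpp21-/-. Myc, in contrast, gave 0.83 in WT and 1.40 in Arpp21-/- and was not called. Of the HIF targets outside glycolysis, Ndrg1 rose from 94.7, 96.1 and 107 CPM to 218, 230 and 225 CPM in WT (1.18 ± 0.25, adjusted p = 0.0252). In Arpp21-/- it rose from 68.98 and 41.4 CPM to 170.4, 170.3 and 132 CPM (1.52 ± 0.29, adjusted p = 0.0149). Ndrg1 was lower in Arpp21-/- than in WT without overlap at both stages. Groups did not overlap for 15.8% of all genes at DN2 and 10.5% at DN3. The differences were -0.85 ± 0.28 in DN2 and -0.51 ± 0.24 in DN3, and neither was called. Ddit4, an inhibitor of mTORC1 signalling, rose from 2.18, 6.96 and 2.15 CPM to 16.4, 26.7 and 20.1 CPM in WT (2.48 ± 0.53, adjusted p = 0.0269). The other 9 HIF targets tested were not called, among them Car9 (-0.71 in WT) and Bnip3 (-1.09 in WT).

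The enzymes of the remaining steps were not called in edgeR's quasi-likelihood test, while DESeq2 called Eno3, described above, in WT. Tpi1, the triosephosphate isomerase, was at only 1.495 to 5.28 CPM over the 11 libraries. Whether all of its reads were assigned to it was not tested, so nothing is read for its step. Gapdh gave a log2 fold change of 0.05 in WT and 0.28 in Arpp21-/-, Pgk1 -0.28 and -0.74, Eno1 0.49 and 0.54, Aldoa -0.54 and -0.66, and Gpi1 -0.27 and 0.08. Other genes hold 84.1% of the 31-base words of Gapdh, 68.3% of those of Pgk1 and 77.2% of those of Eno1. For Aldoa it was 35.0% and for Gpi1 32.45%. The most expressed of the other genes reached 68.9 CPM for Gapdh, 6.84 CPM for Eno1, 0.374 CPM for Pgk1 and 0.0872 CPM for Aldoa. For Gpi1 it was Atp5b, at up to 6697 CPM, which shares 16 words. The values of these enzymes are uncertain to that extent. All 7 genes of the pentose phosphate pathway were negative from DN2 to DN3 in WT, with a median of -0.12. In Arpp21-/- 3 of the 7 were positive, with a median of -0.01. None of them was called in edgeR's quasi-likelihood test in either genotype. Fbp2, the muscle form of fructose-bisphosphatase, was at 0 in all 11 libraries, which allows up to 0.0802 to 0.242 CPM per library (3 counts, counting error only).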

How the data were processed

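RNA of DN2 and DN3 thymocytes (WT or Arpp21-/-) was read from poly-A libraries, labelled total RNA, made with SmartSeq V4 and Nextera. Per the submitters' notes and the study's methods, trimmed paired reads were assigned with kallisto 0.46 to Ensembl transcripts of GRCm38. Estimated counts per transcript were deposited by the authors without normalization, in units of read pairs that need not be whole. TPM, deposited by the authors, are counts over effective length, scaled to a fixed sum. Lengths and effective lengths, deposited by the authors, are another unit, bases.

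Of 119414 transcripts, 116640 matched a GENCODE M21 gene, and 0.96% to 1.09% of counts per library did not. Counts were summed per gene, rounded and filtered with filterByExpr (minimum count 10, minimum total 15). Groups were fitted together with edgeR 4.0.16 (R 4.3.3; glmQLFit, glmQLFTest, TMM), two-sided, with Benjamini-Hochberg adjustment over all genes and calls under 0.05. SE is the absolute log2 fold change over the square root of F. The fit was tried on simulated counts with the same spread for all genes and no trend over transcript length. That setting does not cover the libraries that stood apart. The members, lists and comparisons were chosen with earlier results of these data known. Named are the 10 members, called pathway genes, paralogs, the 5 genes most like Pgam2 and Arpp21. H2-Q6, Dbnl, Myc, Car9, Bnip3, Vhl, the single markers and the uncalled enzymes were named after their values were seen. Alternatives were DESeq2 1.42.0, its size factors in edgeR, no filter, limma voom (limma 3.58.1) with quality weights, an offset for transcript length, replicate blocks, libraries left out, counts over effective length and shares of TPM. Tables and plots used Python 3.11.15, pandas 2.3.3 and matplotlib 3.10.9.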

Additional observations from a re-analysis of the deposited data

How the results depend on the processing

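The fold changes of Pgam2 kept their sign in WT (3.29 to 3.83), between the genotypes in DN3 (-2.53 to -1.73) and DN2 (0.46 to 1.36) and in the difference of stage changes (-3.64 to -2.74) under every alternative run, and lay between -0.04 and 0.80 in Arpp21-/-. Ldhb and Mycn stayed called in WT under all 19 alternatives, while Slc16a3 was lost under 7 of them (adjusted p up to 0.143), Ndrg1 under 9 (up to 0.104) and Ddit4 under 6 (up to 0.104). In Arpp21-/-, Ldhb was lost under 3, Mycn under 2, Slc16a3 under 7, Ndrg1 under 4 and Ddit4 under 10.

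Genes called from DN2 to DN3 in WT numbered 566, with 1191 by DESeq2, 2324 by limma voom, 216 with the replicate block of genotype and number, and 2230 without both libraries that stood apart. Pathway genes called there went from 5 to 8, 20, 2 and 18, and to 3 with the replicate number as block. Pfkp was the 1 member called by limma voom and without both libraries. Calls of members between the stages remain a description here too. In Arpp21-/- 597 genes were called, with 1600 by DESeq2, 140 by limma voom, 917 with the length offset, 120 with the replicate block of genotype and number and 897 without both libraries. Pathway genes called went from 5 to 9 by DESeq2 and to 0 by limma voom and under that block, and DESeq2 called 1 member, Pfkp. Between the genotypes in DN3, 1 gene was called, with 16 by DESeq2, 118 by limma voom (1 pathway gene, Vhl), 0 with the replicate number as block and 5 without both libraries. In DN2 and in the difference of stage changes DESeq2 called 38 and 10 genes. The cause of these shifts was not tested.

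Leaving out 1 library gave 243 to 1081 genes, 2 to 7 pathway genes and 0 to 0 members in WT, and 281 to 6754, 1 to 31 and 0 to 6 in Arpp21-/-. Between the genotypes it gave 0 to 1, 0 to 0 and 0 to 0 in DN3 and 0 to 6773, 0 to 28 and 0 to 7 in DN2, and 0 to 3661, 0 to 11 and 0 to 2 in the difference. The upper ends in Arpp21-/-, in DN2 and in the difference came without DN2 Arpp21-/- replicate 1, which leaves replicate 2, a library that stood apart, as the only one of its group, assumed to vary like the others. Leaving out any other library gave 0 genes in DN2. In WT the count was 1075 without DN2 Arpp21-/- replicate 2 and 1081 without replicate 1, and 243 to 333 without each of DN2 WT replicates 2 and 3 and DN3 WT replicates 1 to 3. In Arpp21-/- it was 281 and 283 without DN3 Arpp21-/- replicates 1 and 2, where 2 and 1 pathway genes were called, and 3 were called without DN2 Arpp21-/- replicate 2 or DN3 WT replicate 3. In WT 2 or 3 pathway genes were called without any 1 of the DN2 WT or DN3 WT libraries. The 1 gene called in DN3 was lost without any 1 of the DN2 WT, DN3 WT or DN3 Arpp21-/- libraries. Deviations of log2 CPM from the mean of the group, rather than the levels themselves, were correlated between libraries of the 2 stages. Same-numbered libraries gave 0.0859 to 0.29 in WT, each best with its own number, and -0.455 and 0.531 in Arpp21-/-. Deviations within a WT group also depend on each other, since they are taken from a shared mean. The Arpp21-/- values cannot decide on pairs, because the deviations of only 2 DN2 libraries mirror each other. With DN3 Arpp21-/- replicate 1, DN2 replicate 1 gave 0.531 and replicate 2 gave -0.531. Whether equal numbers share an animal was not tested, and the main fit did not use the numbers as pairs. Of 40 mean TPM, 34 moved by less than 1 SD with counts over mean effective length, and Slc2a3 in DN3 WT moved to 15.9. Transcript shares by TPM moved more often (Pkm-201 to 91.9% in DN3 WT). Pgam2 rests on as few as 43 counts in a library, and with 2 or 3 libraries a group an uncalled gene can still differ.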
